A study of Mus musculus with 48 samples.

Results

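The 35 genes described here make cholesterol, sense it, move it out of cells or take up the lipoproteins that carry it. They were chosen by name, with earlier results of these data known. All 35 were listed in both expression tables, which share 16952 gene symbols. They comprise 17 enzymes of synthesis, 5 genes of the SREBP control system, 4 genes of efflux and its LXR receptors, 3 genes of hydroxylation and esterification, 3 lipoprotein receptors and 3 genes of lysosomal cholesterol release. RNA was sequenced from the cerebral cortex of 48 mice in 12 groups of 4. The groups were female and male C57BL/6J mice (B6, wild type, with mouse *Apoe*), *APOE*3-TR mice and *APOE*4-TR mice, each breathing filtered air or re-aerosolized nPM, a nano-sized fraction of urban particulate matter. *APOE*-TR mice carry the human *APOE*3 or *APOE*4 allele in place of the mouse gene by targeted replacement. Sessions in the chamber lasted 5 hr and were held on 3 days of each week. B6 mice (labelled 4 months old) had 8 weeks of exposure and *APOE*-TR mice (labelled 6 months old) had 15 weeks, so strain, duration and nPM batch cannot be told apart. The tissue was whole cortex, in which fewer cells of a type and less RNA per cell cannot be told apart.

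The brain makes its own cholesterol because lipoproteins do not cross the blood-brain barrier, and most of it sits in myelin. Synthesis is set by SREBP-2, a transcription factor held in the endoplasmic reticulum by Scap and the Insig proteins while sterol is plentiful and released to switch on the enzyme genes when sterol is scarce. Astrocytes load cholesterol onto ApoE particles through Abca1 and Abcg1, neurons take the particles up through Lrp1 and related receptors and release the cholesterol in lysosomes through Lipa, Npc2 and Npc1, and neuronal Cyp46a1 hydroxylates the excess so that it can leave the brain.

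Estimated depth ran from 17.8 to 31.3 M reads in *APOE*-TR mice and from 2.05 to 24.4 M reads in B6 mice. *Nr1h3* and *Fdps* in B6 mice rested on as few as 2 and 0 reads, and in *APOE*-TR mice the lowest count of any member was 28, for *Nr1h3*. In each mouse the level of all genes relative to the other mice was also related to transcript length, and the slope of that relation (the length slope, log2 level per doubling of length) was used as a covariate in a second version of most fits. The slope was -0.54 and -0.40 in *APOE*3 female controls 61 and F6, and between -0.22 and 0.16 in the other 30 *APOE*-TR mice. The label of control F6 matches that group but no single animal. Several results that hold these 2 controls are also given without them. All astrocyte, oligodendrocyte, neuron and microglia markers had reads in every mouse. P-values measure the spread between these mice. The B6 and *APOE*-TR tables were normalized separately and differ in annotation, so levels were compared within a table. Only *Fdps* and *Fdft1* are set side by side, to show their low level in B6 mice.

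The promoters of the enzyme genes are shown first because SREBP acts there. RefSeq promoters (GRCm38.p6) were found for 30 of the 35 genes. The letters TCACNCCAC, a form of the sterol regulatory element, were searched on both strands in the 250 bases before each start, with the letters CCAAT, the site of the NF-Y factor that acts beside SREBP. Of 14 synthesis genes with a promoter, 13 (92.9%) held CCAAT, against 10 of 16 other members (62.5%) and 37.5% of all 27025 genes with a promoter. The sterol element was found in *Hmgcs1* alone among the 30, and in 1.22% of all genes with a promoter. Below is a stretch of 100 bases from the 250 bases upstream of each of 5 genes called lower with nPM in *APOE*-TR mice. Each stretch was picked for holding the most matches, so that it holds a match was fixed in advance. *Lcat*, also called lower, had 1 CCAAT match and is not shown, and no promoter was found for *Sqle*. Capitals mark CCAAT or its reverse complement ATTGG and, in *Hmgcs1*, the sterol element.
Hmgcs1: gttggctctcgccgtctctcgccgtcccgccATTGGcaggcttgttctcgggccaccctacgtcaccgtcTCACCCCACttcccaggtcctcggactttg
Mvd: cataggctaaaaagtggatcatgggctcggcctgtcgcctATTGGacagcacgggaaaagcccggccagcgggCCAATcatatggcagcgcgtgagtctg
Idi1: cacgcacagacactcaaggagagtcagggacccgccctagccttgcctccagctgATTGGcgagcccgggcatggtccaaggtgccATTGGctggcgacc
Cyp51: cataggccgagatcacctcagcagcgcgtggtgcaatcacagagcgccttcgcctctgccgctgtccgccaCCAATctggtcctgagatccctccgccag
Insig1: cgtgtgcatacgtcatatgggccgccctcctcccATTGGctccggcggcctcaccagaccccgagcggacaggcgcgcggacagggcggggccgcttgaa
They lie at chr13:119690144-119690243 (plus strand), chr8:122443423-122443522 (minus strand), chr13:8885506-8885605 (plus strand), chr5:4104698-4104797 (minus strand) and chr5:28071162-28071261 (plus strand). A match is a run of letters and not a measured binding site.

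Per kilobase of the longest transcript, the most abundant members in *APOE*-TR cortex were *Hmgcs1*, the enzyme that commits acetyl groups to the mevalonate pathway (mean 60.1 CPM per kb), and *Cyp46a1* (38.5 CPM per kb). *Srebf2*, which encodes SREBP-2, and *Insig1* followed at 21.7 CPM per kb each. *Nr1h3*, which encodes LXRα, was the least abundant at 0.739 CPM per kb. Spread between mice of 1 group was smallest for *Vldlr* (SD 0.08 on the log2 scale over *APOE*-TR groups) and largest for *Srebf2* and *Lrp1* (0.31 each).

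To ask whether nPM changed these genes in general, all 48 mice were fitted together. Only *Cyp46a1* was called, meaning an unadjusted p under 0.005 in limma, and it was higher with nPM. It is 1 of 34 members tested, against 1.48% of all 11075 genes, and no member or other gene passed 5% FDR. The log2 change of *Cyp46a1* was 0.35 ± 0.107 (SE, adjusted p = 0.302). At an unadjusted p under 0.05 there were 7 members. Of the members tested, 18 were higher and 16 lower, and their median log2 change was 0.007, the same as that of all genes. *Fdps*, farnesyl diphosphate synthase, had no reads in 1 B6 mouse and was not tested. That mouse had 16.5 M reads. The mean of *Fdps* was 2.4 CPM in the B6 and 17.2 CPM in the *APOE*-TR table, whose annotations differ. The enzyme gene *Fdft1* had a like gap (7.11 and 63.4 CPM) and as few as 12 reads in a B6 mouse, but it was tested.

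Restricted to the 32 *APOE*-TR mice, the same model called 7 of 35 members, all of them lower with nPM. Of all 15967 genes, 0.695% were called in either direction and 0.451% were called lower. This fit became a result of its own after the data were seen. The 7 members were the synthesis enzymes *Idi1*, *Sqle*, *Cyp51*, *Hmgcs1* and *Mvd*, the SREBP retention gene *Insig1*, and *Lcat*, which esterifies cholesterol on lipoproteins. None passed 5% FDR by limma (adjusted p = 0.277 for each of the 7), and 17 members had an unadjusted p under 0.05. Of the 17 enzymes of synthesis, 16 had lower values with nPM, with a median log2 change of -0.149 beside -0.001 for all genes, of which 50.5% were lower. *Lss* (lanosterol synthase) was the exception at 0.06 ± 0.0644. Without the 2 controls of lowest length slope, 2 members remained called (*Idi1* and *Sqle*), among 42 of all 16111 genes (adjusted p = 0.855 for both by limma). There 16 of 17 enzymes were still lower, with a median of -0.089. With the length slope as a covariate, *Idi1* and *Sqle* were called, among 31 of all 15967 genes. There 15 of 17 were lower, and the median was -0.068. No gene passed 5% FDR in either fit.

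**Figure D1:**
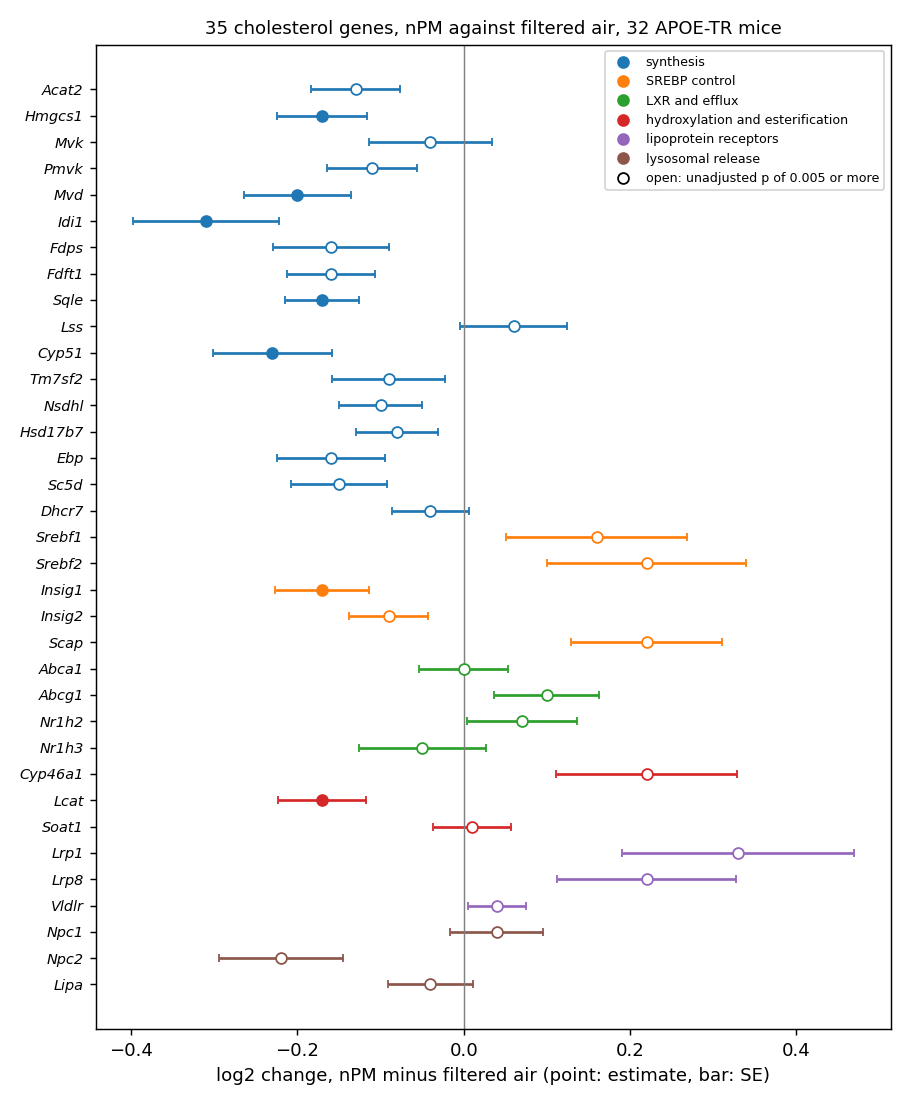
Log2 change with nPM against filtered air in 32 *APOE*-TR mice (x axis; points are limma estimates, bars their SE) for 35 genes (y axis), coloured by role. Filled points are the 7 genes called, all below 0, and 16 of the 17 synthesis enzymes lie left of 0.

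*Idi1*, the isomerase that makes the reactive isoprene unit, was lower by a log2 change of -0.31 ± 0.0882 (adjusted p = 0.277). In *APOE*3 females its level was 32, 62.9, 36 and 49.7 CPM in filtered air (the 62.9 and 49.7 CPM being controls 61 and F6) and 34.2, 22.1, 23.6 and 30.3 CPM with nPM. In *APOE*3 males it was 30.7, 27.4, 28.1 and 25.7 CPM in air and 26.2, 23.9, 23.4 and 23.7 CPM with nPM. The lowest control of *APOE*3 males thus lay within the nPM range, and in *APOE*3 females 1 nPM mouse lay above the lowest control. In *APOE*4 females the values were 26, 29.1, 25.4 and 22.8 CPM in air and 19.6, 23.5, 23.7 and 21.7 CPM with nPM. In *APOE*4 males they were 25.2, 29.9, 27.5 and 23.5 CPM in air and 23.4, 24.7, 21.8 and 24.8 CPM with nPM. The mean was lower with nPM in each of the 4 groups, with some overlap in each.

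*Sqle*, squalene epoxidase, a rate-limiting step late in the pathway, had the smallest p of the members and a log2 change of -0.17 ± 0.0444 (adjusted p = 0.277), a change of -10.9%. In *APOE*3 males *Sqle* was 43.3, 39.4, 43.8 and 47.2 CPM in air and 41.8, 41.8, 35.4 and 36.2 CPM with nPM. In *APOE*4 males it was 40.5, 41.1, 45 and 38.8 CPM in air and 39.1, 37.6, 38.1 and 36.8 CPM with nPM. Only 1 nPM value of *APOE*4 males exceeded the lowest control. In *APOE*3 females it was 39.4, 51.2, 41.5 and 47.2 CPM in air and 40.6, 33.7, 36.2 and 38.4 CPM with nPM, and in *APOE*4 females 34.6, 43, 35.9 and 34.7 CPM in air and 30.6, 35.3, 36.9 and 33.1 CPM with nPM.

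*Hmgcs1* differed by -0.17 ± 0.0542 in the same fit and *Cyp51*, lanosterol demethylase, by -0.23 ± 0.0715 (adjusted p = 0.277 for both). *Hmgcs1* averaged 261 ± 39 CPM (SD, n = 4) in *APOE*3 female controls and 207 ± 21 CPM with nPM. Its means in air and nPM were 217 ± 13.8 and 198 ± 18.2 CPM in *APOE*3 males, 202 ± 30.8 and 182 ± 16.8 CPM in *APOE*4 females, and 204 ± 14.5 and 192 ± 10.3 CPM in *APOE*4 males. Outside *APOE*3 females these differences were smaller than or near the spread between mice. In *APOE*3 females *Cyp51* was 53.7, 93.5, 68.6 and 92.5 CPM in air, the highest pair being controls 61 and F6, and 61.4, 43.2, 49.5 and 62.2 CPM with nPM. *Cyp51* was 48.5, 55.4, 54.1 and 47.3 CPM in *APOE*4 male controls and 47.5, 46.3, 45.2 and 46.1 CPM with nPM, where all but 1 nPM mouse lay below every control. *Mvd*, mevalonate diphosphate decarboxylase, differed by -0.20 ± 0.0645 and *Fdft1*, squalene synthase, by -0.16 ± 0.053, the latter just outside the threshold of 0.005 (adjusted p = 0.277 for both, limma).

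**Figure D2:**
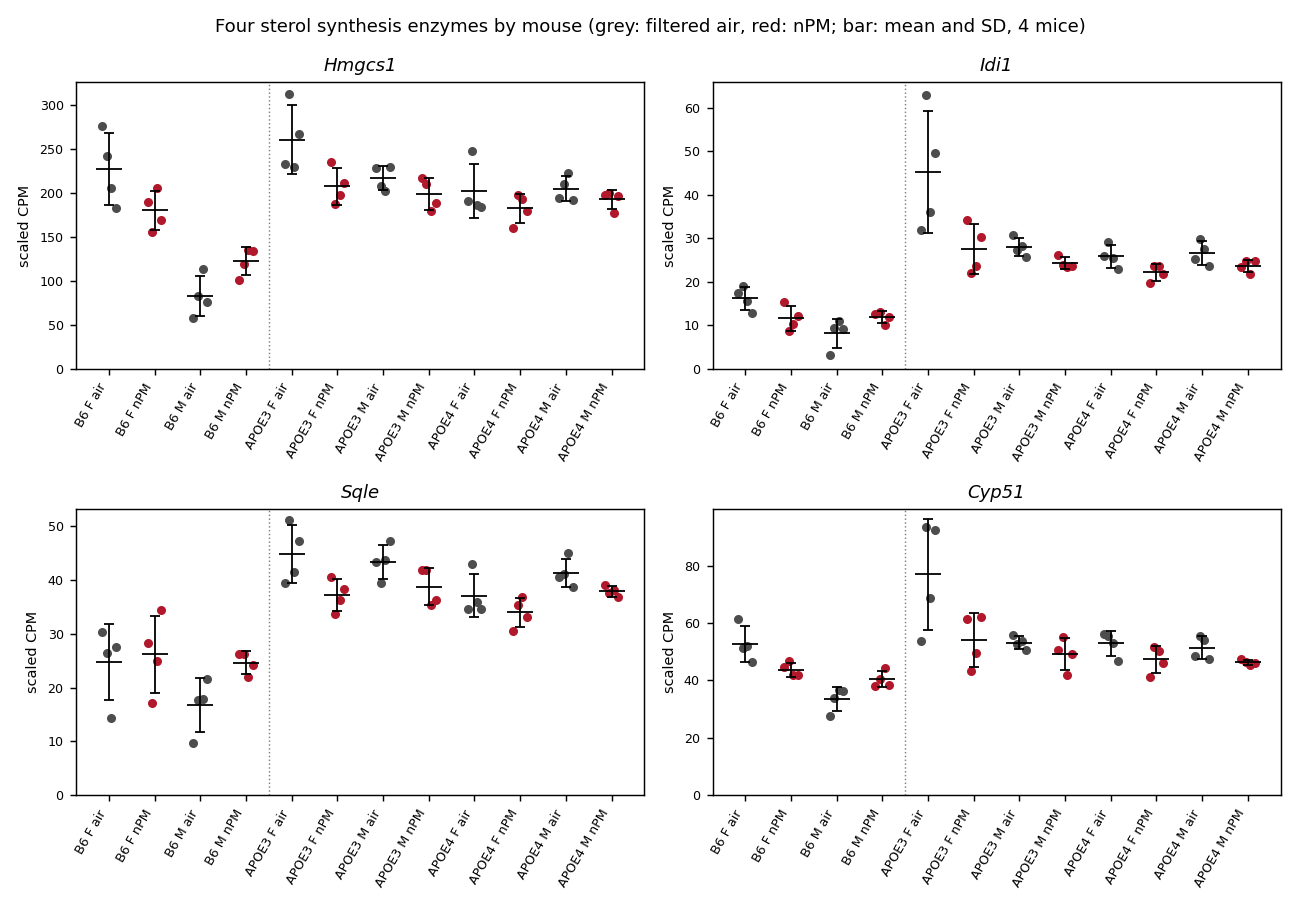
Level of *Hmgcs1*, *Idi1*, *Sqle* and *Cyp51* (y axis, TMM-scaled CPM) in each mouse of the 12 groups (x axis), with the group mean and SD (bars, n = 4 mice). In *APOE*-TR groups each nPM mean lies below its control mean, and in B6 males each lies above it.

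Since controls 61 and F6 are *APOE*3 females, the fit was repeated with the other 24 *APOE*-TR mice. It called 5 members, against 0.566% of 16252 genes. *Idi1*, *Cyp51*, *Sqle* and *Fdft1* were lower, against 0.197% of all genes called lower, and *Lrp1* was higher. *Idi1* changed by -0.19 ± 0.0446, *Cyp51* by -0.14 ± 0.0433 and *Sqle* by -0.14 ± 0.0417 (adjusted p = 0.718 for each). The count at 5% FDR was again 0 by limma, with 10 members at an unadjusted p under 0.05. Of the 17 enzymes, 16 were lower, with a median of -0.092 beside 0.001 for all genes. With the length slope as a covariate only *Idi1* of the 5 stayed called in these 24 mice, among 108 of all 16252 genes. There 16 of 17 enzymes were lower, with a median of -0.065.

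Taken 8 mice at a time, nPM against filtered air called no member in the 4 *APOE*-TR comparisons, beside 0.665% of genes called for *APOE*3 females and 0.154% for *APOE*3 males. For *APOE*4 the background was 0.272% in females and 0.178% in males. At an unadjusted p under 0.05 limma gave 11, 3, 5 and 5 members, in that order. The synthesis enzymes were nonetheless mostly below 0 in each. Of 17 enzymes, 15 were lower for *APOE*3 females (median log2 change -0.25) and 14 for *APOE*3 males (-0.055). For *APOE*4 females 17 were lower (-0.16) and for *APOE*4 males 15 (-0.075), while between 48.5% and 50.9% of all genes were lower. These 4 comparisons share no mice. The length slope differed with nPM in females, and with it as a covariate 12 of 17 were lower in *APOE*3 females and 8 of 17 in *APOE*4 females, with a median of 0.021 in the latter. In males 12 (*APOE*3) and 15 (*APOE*4) of 17 were lower with the covariate, with medians of -0.052 and -0.075. The enzymes share regulators and cells and are not independent of each other.

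**Figure D3:**
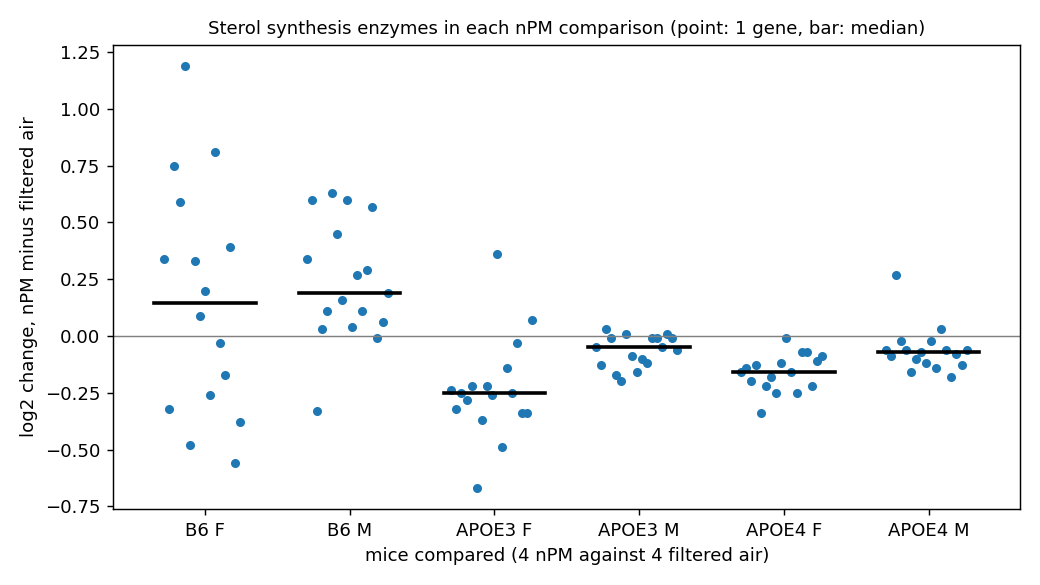
Log2 change with nPM (y axis) of each synthesis enzyme (points) in 6 comparisons of 4 nPM with 4 filtered-air mice (x axis), with the median (bars). Medians lie below 0 in the 4 *APOE*-TR comparisons and above 0 in both B6 comparisons.

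Markers of myelinating cells moved the same way over the 32 *APOE*-TR mice, though not in every group. All 8 oligodendrocyte markers were lower with nPM in the 32-mouse fit, with a median of -0.168, and 1 of them (*Opalin*) was called. Their summed level was 4800 to 6540 CPM in *APOE*3 female controls and 3760 to 5020 CPM with nPM. It was 3830 to 5650 and 3710 to 4540 CPM in *APOE*4 females and 2980 to 3820 and 2900 to 3730 CPM in *APOE*3 males. In *APOE*4 males it was 3390 to 3650 and 3040 to 3810 CPM, and there the median sum was higher with nPM (3450 and 3530 CPM). The median was lower in the other groups, at 5220 and 4080 CPM in *APOE*3 females, 4590 and 3970 CPM in *APOE*4 females, and 3620 and 3420 CPM in *APOE*3 males. Of 8 astrocyte markers 5 were lower (median -0.112) and none was called, while neuron markers had a median of 0.005. Of 8 microglia markers 7 were lower (median -0.154) and none was called. Their summed level was 354 to 452 CPM in *APOE*3 female controls and 257 to 353 CPM with nPM, with no overlap, and 257 to 546 and 247 to 306 CPM in *APOE*4 females. In males the median sum of the microglia markers was higher with nPM, at 247 and 259 CPM in *APOE*3 and 239 and 250 CPM in *APOE*4 mice. The part of these cells in the enzyme values was not tested. Without *APOE*3 females all 8 oligodendrocyte markers were again lower, with a median of -0.086, and none was called by limma (2 at an unadjusted p under 0.05).

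In B6 females 4 of 34 members were called, against 1.21% of all 14758 genes, and none passed 5% FDR by limma, with 8 members at an unadjusted p under 0.05. *Cyp46a1* was 56.6, 63.3, 55.9 and 78.7 CPM in air and 81.3, 128, 132 and 92.6 CPM with nPM, with no overlap (log2 change 0.75 ± 0.189, adjusted p = 0.386). *Mvd* was 4.14, 3.12, 3.35 and 6.1 CPM in air and 7.01, 10.6, 12.6 and 10 CPM with nPM, again with no overlap (1.19 ± 0.321, adjusted p = 0.386). *Insig2*, the second SREBP retention gene, was lower in all nPM mice, at 27.8, 26.1, 23.7 and 28.9 CPM in air and 12.3, 16.9, 17.4 and 18.9 CPM with nPM (-0.70 ± 0.207, adjusted p = 0.386). *Nr1h3* was higher by 1.26 ± 0.369 but rested on 2 to 20 reads in air and 4 to 91 reads with nPM. With 1 mouse left out the count of members called fell to 0 in 3 of 8 fits, without control 40, control 42 or nPM mouse 52. With the length slope as a covariate only *Cyp46a1* was called, and with the variance shared over all B6 groups only *Mvd* and *Nr1h3* were. The summed astrocyte markers were 3180 to 3670 CPM in air and 2400 to 3010 CPM with nPM. All 6 striatum markers were higher with nPM, with a median of 1.037 and none called by limma (0 at an unadjusted p under 0.05). The part of these tissues and cells in the values was not tested.

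The enzymes of synthesis did not move together in B6 females, where 9 of 16 were higher and 7 lower. *Sc5d*, sterol desaturase, had a log2 change of -0.56 ± 0.193, while *Mvk*, mevalonate kinase, had 0.75 ± 0.337 (adjusted p = 0.389 and 0.464). In B6 males no member of 35 was called, against 0.241% of genes, and 2 had an unadjusted p under 0.05 by limma, *Hmgcs1* (0.60 ± 0.216) and *Sqle* (0.60 ± 0.264). There 15 of 17 enzymes were higher with nPM, with a median of 0.19 beside 0.003 for all genes. In the same mice 6 of 8 neuron markers were higher (median 0.405, 3 at an unadjusted p under 0.05), 6 of 6 striatum markers lower (-0.505) and 5 of 6 oligodendrocyte precursor markers lower (-0.344), none of them called, and their part was not tested. *Hmgcs1* in the 4 B6 male controls was 58, 82.5, 113 and 75.3 CPM, and 101, 119, 135 and 134 CPM with nPM, with 1 control inside the nPM range. In B6 females *Hmgcs1* was 276, 242, 206 and 183 CPM in air and 190, 155, 206 and 169 CPM with nPM.

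Whether the response to nPM differed by sex was tested as the female response minus the male response, averaged over the 3 genotypes. *Hmgcs1* and *Idi1* were called, 2 of 34 members against 1.98% of all genes, and neither passed 5% FDR by limma. The response of *Hmgcs1* was lower in females than in males by a log2 difference of -0.39 ± 0.115 (adjusted p = 0.22), and that of *Idi1* by -0.55 ± 0.173 (adjusted p = 0.225). *Cyp51*, *Sc5d* and *Insig2* also had an unadjusted p under 0.05 and differed in the same direction. Within B6 mice the difference for *Hmgcs1* was -0.92 ± 0.271 (adjusted p = 0.54), the only member called among 34, beside 0.873% of all genes, and *Idi1* differed by -1.11 ± 0.44 (adjusted p = 0.556). Within *APOE*-TR mice the difference was -0.12 ± 0.102 for *Hmgcs1* and -0.27 ± 0.145 for *Idi1*, and neither was called. There *Npc2* was the only member called of 35 (-0.42 ± 0.127, adjusted p = 0.261), against 1.25% of all genes. Without the 2 controls of lowest slope no member was called in the fit of all mice, with *Hmgcs1* at -0.34 ± 0.115 (adjusted p = 0.828).

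Among the SREBP genes, *Srebf2*, *Srebf1* and *Scap* had higher mean values with nPM over the 32 mice and *Insig1* and *Insig2* lower ones, and only *Insig1* was called. *Srebf2* was 103, 35.7, 98.5 and 45.7 CPM in *APOE*3 female controls, the 2 low values being controls 61 and F6, and 73.7, 120, 126 and 108 CPM with nPM. In the 24 *APOE*-TR mice outside *APOE*3 females it lay between 99.9 and 135 CPM. Its log2 change with nPM over the 32 mice was 0.22 ± 0.12 (adjusted p = 0.28), and 0.05 ± 0.0339 in the 24 mice without *APOE*3 females (adjusted p = 0.747). *Scap*, the sterol sensor that escorts SREBP, changed by 0.22 ± 0.0909 and 0.08 ± 0.0376 in the same fits. *Insig1*, a direct target of SREBP, was lower in each *APOE*-TR comparison. In *APOE*3 females it was 56.6, 76.8, 56.4 and 72.5 CPM in air and 55.8, 54.3, 53.1 and 63.6 CPM with nPM, and in *APOE*4 females 47.1, 71.5, 60.4 and 57.9 CPM in air and 44.9, 52, 60.3 and 58.7 CPM with nPM, with overlap in both. In *APOE*3 males *Insig1* was 69, 56.6, 65.8 and 57.1 CPM in air and 49.8, 56.4, 53.2 and 50.4 CPM with nPM, and all nPM mice lay below all controls (-0.24 ± 0.0737, adjusted p = 1). In *APOE*4 males it was 64.5, 55, 61.3 and 64 CPM in air and 59.2, 48.4, 56.9 and 59.8 CPM with nPM, with overlap.

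**Figure D4:**
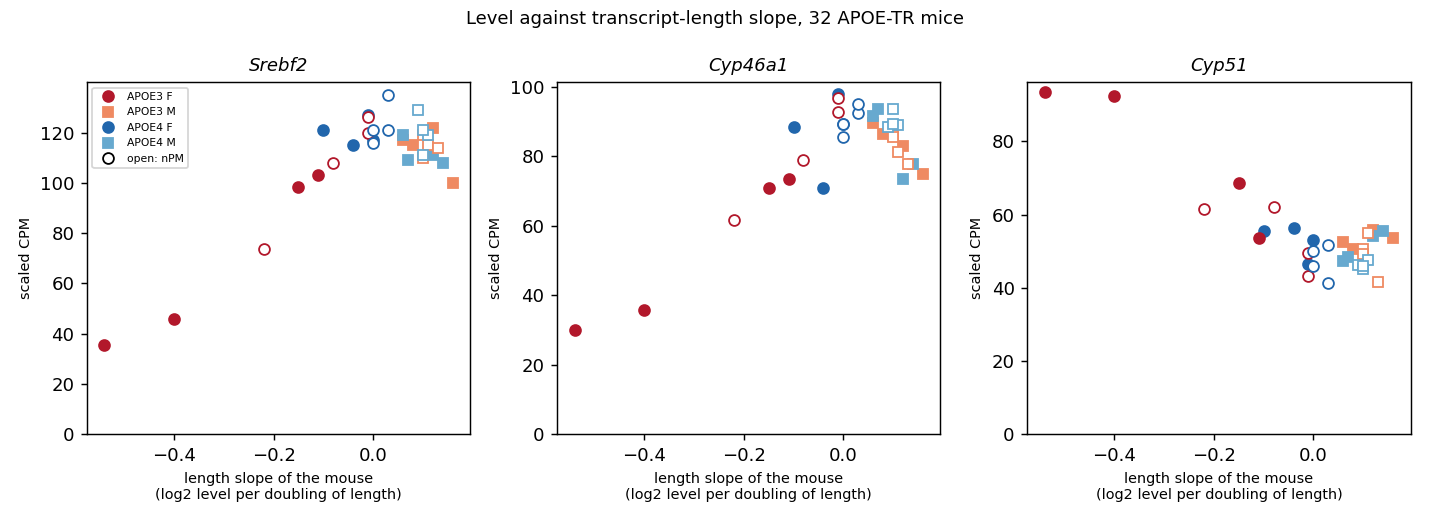
Level of *Srebf2*, *Cyp46a1* and *Cyp51* (y axes, TMM-scaled CPM) against the length slope of the library (x axis, log2 level per doubling of transcript length) in 32 *APOE*-TR mice, by genotype and sex. *APOE*3 female controls 61 and F6, at -0.54 and -0.40, have the lowest *Srebf2* and *Cyp46a1* and high *Cyp51*.

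In *APOE*-TR mice *Cyp46a1* was 73.4, 30.1, 70.8 and 35.7 CPM in *APOE*3 female controls and 61.6, 92.7, 96.9 and 78.9 CPM with nPM, and the low values were again controls 61 and F6. Its change over the 32 mice was 0.22 ± 0.109 (adjusted p = 0.277), and 0.05 ± 0.0461 without *APOE*3 females. Without those 2 controls the 48-mouse estimate was 0.26 and not called (adjusted p = 0.779). *Lcat* was 10.9, 13.4, 10.7 and 13.4 CPM in *APOE*3 female controls and 8.89, 9.19, 9.58 and 10.5 CPM with nPM, where all nPM mice lay below all controls. It differed by -0.17 ± 0.053 over the 32 mice and by -0.11 ± 0.057 without *APOE*3 females. *Soat1*, which stores cholesterol as ester, differed by 0.01 ± 0.0468.

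The efflux genes showed little difference with nPM in *APOE*-TR mice, apart from *Abcg1* in *APOE*3 females. *Abca1*, the first transporter to lipidate ApoE, had a log2 change of 0.00 ± 0.0532 over 32 mice and lay between 24.6 and 40.3 CPM in every *APOE*-TR mouse. *Abcg1*, which adds cholesterol to particles already formed, had 0.10 ± 0.0631, and -0.02 ± 0.0241 without *APOE*3 females (adjusted p = 0.31 and 0.88). *Nr1h2*, which encodes LXRβ, had 0.07 ± 0.0665. Among the receptors, *Lrp1*, a large receptor for ApoE particles, had 0.33 ± 0.14 over 32 mice (adjusted p = 0.277) and 0.13 ± 0.04 without *APOE*3 females (adjusted p = 0.718). *Lrp1* was 221, 249, 225 and 246 CPM in *APOE*4 male controls and 257, 282, 269 and 250 CPM with nPM, where every nPM mouse lay above every control (0.17 ± 0.0565, adjusted p = 0.954). *Npc2*, which hands cholesterol to Npc1 in the lysosome, had -0.22 ± 0.0748 over 32 mice (adjusted p = 0.277) and -0.11 ± 0.0616 without *APOE*3 females.

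The allele contrast is *APOE*4 minus *APOE*3 over air and nPM mice. It compares the *APOE*3-TR and *APOE*4-TR lines, so the allele and any other difference between the lines cannot be told apart. In the fit of all 48 mice 1 of 34 members was called, against 1.89% of all genes. This was *Abcg1*, with a log2 difference of 0.25 ± 0.0843 (adjusted p = 0.26). In the 32 *APOE*-TR mice alone 7 of 35 members were called, against 8.36% of all 15967 genes, and 6 passed 5% FDR, against 5.94%. At 5% FDR *Vldlr*, a receptor for ApoE particles and reelin, *Abcg1* and *Npc1* were higher in *APOE*4 mice, and the enzymes *Hsd17b7*, *Idi1* and *Sc5d* were lower. *Vldlr* differed by 0.16 ± 0.035 (adjusted p = 0.00539) and *Abcg1* by 0.25 ± 0.0631 (adjusted p = 0.0185). *Npc1* differed by 0.20 ± 0.0559 (adjusted p = 0.0314), *Hsd17b7* by -0.16 ± 0.0489 (adjusted p = 0.047), *Idi1* by -0.29 ± 0.0882 (adjusted p = 0.0472) and *Sc5d* by -0.19 ± 0.0575 (adjusted p = 0.0483). *Hmgcs1* was called at -0.17 ± 0.0542 (adjusted p = 0.0568). The contrast uses the same *APOE*3 female controls as the nPM contrast in these mice. With the length slope as a covariate only *Vldlr* (0.12 ± 0.0295, adjusted p = 0.0191) and *Abcg1* (0.12 ± 0.0346, adjusted p = 0.0464) stayed called. *Npc1* was then at 0.09, *Hsd17b7* at -0.15, *Idi1* at -0.11 and *Sc5d* at -0.09 (adjusted p = 0.151, 0.126, 0.268 and 0.324). Markers also differed by allele in the 32 mice. All 8 astrocyte markers were lower with *APOE*4 (median -0.165; *Aqp4*, *Gja1* and *S100b* past 5% FDR), all 6 oligodendrocyte precursor markers were higher (0.185), and of the microglia markers *C1qb* was called. Their part in the members' values was not tested.

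Leaving out the 4 *APOE*3 female controls, 3 members were called, against 3.94% of 16155 genes, and 2 passed 5% FDR, against 2.2%. *Vldlr* differed by 0.12 ± 0.029 (adjusted p = 0.0151) and *Abcg1* by 0.13 ± 0.035 (adjusted p = 0.0423). *Hsd17b7* was the third (-0.18 ± 0.0536, adjusted p = 0.0831). Both *Vldlr* and *Abcg1* stayed called in all 43 alternatives run on the 32-mouse contrast, with log2 differences of 0.11 to 0.21 and 0.12 to 0.37. Of these alternatives, 32 left out a single mouse. *Abcg1* in males was 53.3, 55.9, 51 and 54.1 CPM in *APOE*3 controls and 60.8, 55.4, 55.1 and 58.5 CPM in *APOE*4 controls. With nPM it was 53, 50.3, 55.3 and 52.5 CPM in *APOE*3 males and 55.9, 59, 58.9 and 60.4 CPM in *APOE*4 males. Here all *APOE*4 values lay above all *APOE*3 values, while in air 1 *APOE*3 control lay inside the *APOE*4 range. In females *Abcg1* was 42, 29.1, 46.1 and 31.8 CPM in *APOE*3 controls, 57.1, 55.8, 57.4 and 57.1 CPM in *APOE*4 controls, 41.4, 55.5, 56.2 and 49.4 CPM in *APOE*3 nPM mice and 54.9, 53.9, 54.7 and 55 CPM in *APOE*4 nPM mice. The groups were apart in air and overlapped with nPM.

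*Vldlr* was 64.1, 54.7, 72.5 and 66.7 CPM in *APOE*3 female controls and 76.9, 75, 77.3 and 75.2 CPM in *APOE*4 female controls. In males in air it was 72.6, 66.3, 78 and 73.1 CPM against 76.9, 79.3, 77.3 and 74.7 CPM. With nPM it was 73.8, 68, 67 and 75.1 CPM against 83, 82.1, 82.3 and 73.6 CPM in females, and 72, 70.3, 68.7 and 68.4 CPM against 78.5, 73.4, 79.2 and 76.2 CPM in males. *Npc1* in males was 57.6, 49, 57.6 and 56.7 CPM in *APOE*3 and 56.7, 55.6, 58.5 and 56.6 CPM in *APOE*4 controls, with overlap, and in nPM males 56.4, 52.8, 57.1 and 56.3 CPM and 56, 57.2, 58.2 and 53.7 CPM. For *Vldlr* the *APOE*4 mice lay above all *APOE*3 mice in female controls and in nPM males, and 1 mouse broke the order in each of the others.

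**Figure D5:**
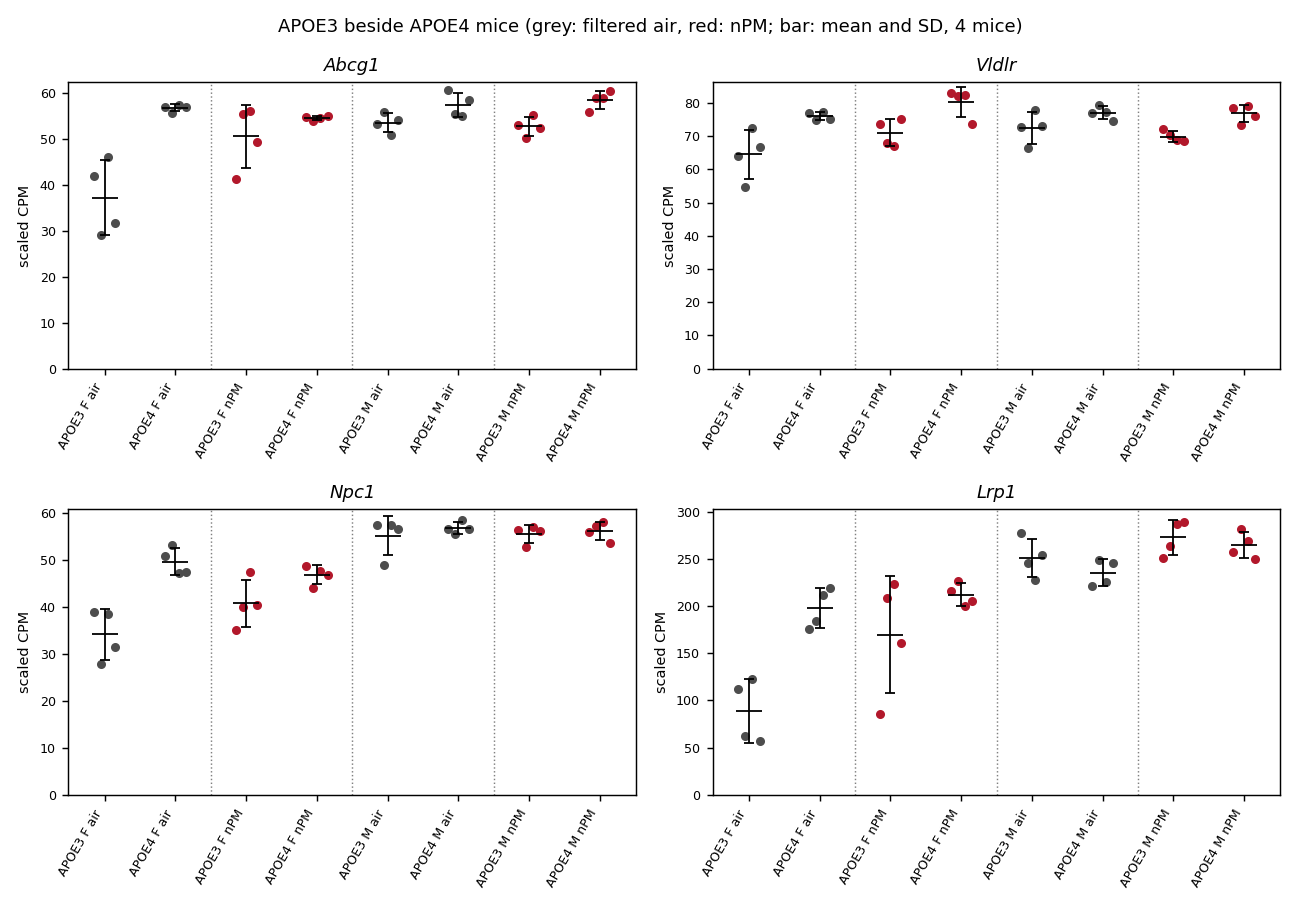
Level of *Abcg1*, *Vldlr*, *Npc1* and *Lrp1* (y axis, TMM-scaled CPM) in each *APOE*-TR mouse by sex, exposure and allele (x axis), with the group mean and SD (bars, n = 4 mice). *APOE*4 means exceed *APOE*3 means for *Abcg1* and *Vldlr* in all 4 pairs. For *Npc1* and *Lrp1* the gap is widest in female controls, and in males the *Lrp1* mean is lower in *APOE*4 mice.

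Taken 8 mice at a time, the allele contrast called 3 members in females in air, against 5.86% of genes, none in males in air, against 1.36%, 1 in nPM females, against 1.15%, and none in nPM males, against 1.95%. In limma 16, 0, 4 and 6 members had an unadjusted p under 0.05, in that order, and none passed 5% FDR. In females in air the 3 were *Lrp1* (1.23 ± 0.254), *Npc1* (0.54 ± 0.127) and *Abcg1* (0.63 ± 0.15), each with an adjusted p of 0.0765. *Lrp1* was 112, 62.1, 123 and 57.3 CPM in *APOE*3 controls and 176, 184, 212 and 219 CPM in *APOE*4 controls. *Npc1* was 39, 27.9, 38.6 and 31.5 CPM against 50.9, 53.2, 47.3 and 47.4 CPM. Both pairs of groups were apart, and without controls 61 and F6 the differences were 0.74 ± 0.105 for *Lrp1* and 0.35 ± 0.0778 for *Npc1* (adjusted p = 0.0285 and 0.0547). With the length slope as a covariate *Lrp1* was at 0.57 ± 0.156 and still called, while *Npc1* (0.28 ± 0.1) and *Abcg1* (0.26 ± 0.0876) were not (adjusted p = 0.243, 0.326 and 0.314). The astrocyte marker *Aqp4* was called lower in this comparison, the neuron marker *Rbfox3* was called too, and the precursor markers had a median of 0.595. The sum of all 8 astrocyte markers overlapped, at 2940 to 4270 CPM in *APOE*3 and 3200 to 4220 CPM in *APOE*4 controls. So did that of the 8 neuron markers, at 5120 to 6600 and 5250 to 5860 CPM. The part of these cells in the members' values was not tested. In nPM females *Tm7sf2*, a sterol reductase, was 7.2, 7.57, 7.16 and 7.37 CPM in *APOE*3 and 5.61, 5.26, 5.38 and 6.46 CPM in *APOE*4 mice (-0.35 ± 0.0952, adjusted p = 0.425). It was not called with the slope as a covariate. In males the mean of *Lrp1* was lower in *APOE*4 than in *APOE*3 mice, at 235 and 251 CPM in air and 264 and 273 CPM with nPM.

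A difference of the nPM response between the alleles was not detected for any member by limma at the threshold of 0.005, beside 0.726% of all 15967 genes, and 4 members had an unadjusted p under 0.05. For *Abcg1* the response in *APOE*4 minus that in *APOE*3 mice was -0.23 ± 0.0975 and for *Hmgcs1* it was 0.11 ± 0.102 (adjusted p = 0.443 and 0.558).

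The pathway around these genes was followed in 42 others, among them fatty acid enzymes, the SREBP proteases, RXR partners and further lipoprotein receptors and carriers. None of the 38 tested was called for nPM in the 48-mouse fit, and none of 42 in the 32 *APOE*-TR mice, where 25 were higher and 17 lower with a median of 0.009. In B6 females 1 was called (*Rxrb*, the retinoid partner of LXR, higher with nPM, named after its value was seen), beside 1.21% of all genes. For the allele, *Msmo1*, a sterol oxidase of the synthesis pathway, was called lower with *APOE*4 in the 48-mouse fit (-0.30 ± 0.094, adjusted p = 0.226), 1 of 38 beside 1.89% of all genes. In the 32 mice 3 of 42 (7.14%) were lower in *APOE*4 mice, all past 5% FDR, a share near the 5.94% of all genes that passed it. They were *Acss2*, which makes acetyl-CoA from acetate (-0.16 ± 0.0381, adjusted p = 0.0104), *Cyp27a1*, a sterol hydroxylase (-0.19 ± 0.0528, adjusted p = 0.0288), and *Msmo1* (-0.30 ± 0.0892, adjusted p = 0.0414).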

How the data were processed

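Cortex RNA of 48 mice was measured as CPM. The deposited values are CPM made by the authors from reads uniquely mapped to mm10 with TopHat2 2.0.8b in Partek Flow, in 1 table for the B6 and 1 for the *APOE*-TR exposure. The step that scaled reads to CPM and the use of strand in counting are not given in the sources used here. In *APOE*-TR mice 96.1% to 97.1% of low values were whole multiples of 1 step (within 0.1 of a whole number), so whole reads were recovered. In B6 mice it was 87.7% to 98.4%, and their reads are estimates. Listings of duplicated symbols, 4 in the B6 and 4 in the *APOE*-TR data, were left out. A column, control F6, was matched to its group only.

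TMM factors (edgeR 4.0.16) rescaled the CPM, and log2(CPM + 0.5) was used, which understates changes of low genes. A gene entered a fit if it had reads in all its mice. Fits of 48 or 32 mice had terms for sex, genotype and nPM, differences of responses came from group means, and fits of 8 mice had no covariate. The test was limma (3.58.1, R 4.3.3, lmFit and eBayes with trend, two-sided), with Benjamini-Hochberg adjustment over all genes tested. A call is an unadjusted p under 0.005, the study's threshold, with the count at 5% FDR beside it. The length slope is that of log2 level, relative to the table's other mice, on log2 length of the longest GENCODE M21 transcript. The fits were tested on simulated data. Alternatives were pseudocounts of 0.1 and 2, no filter, median-ratio scaling, voom with ComBat (sva 3.50.0), the slope as a covariate, variance shared over a table's groups, edgeR on recovered reads, subsets of mice, and leaving out every mouse in turn. The fit of the 32 *APOE*-TR mice was listed as an alternative to that of 48 and became a result of its own after the data were seen. Its own alternatives, the sex differences within 1 strain, and the fits without the 2 controls or without *APOE*3 females were added after the data were seen. Members, the 42 other pathway genes and cell type markers were chosen with earlier results of these data known. All members may be named. The plan allowed values in every mouse for those called in the fits of 48 or of 8 mice and for *Hmgcs1*, *Sqle*, *Srebf2*, *Insig1*, *Abca1*, *Cyp46a1*, *Lrp1*, *Vldlr* and *Npc1*. Not all of these values are printed here. Mice are the replicates. SE is from limma and SD is between mice.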

Additional observations from a re-analysis of the deposited data

Results flagged for a closer look

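In 180 groups of 4 mice (15 members called in the fits of 48 or of 8 mice or fixed by name, in 12 groups), 7 had 1 mouse set apart from the others by Dixon's test. Chance flags about 1 group in 20. *APOE*4 female control 21 was high in *Hmgcs1* (248 CPM, others 184 to 191) and in *Sqle* (43 CPM, others 34.6 to 35.9). *Tm7sf2* was low in *APOE*3 male control 63 (4.92 CPM, others 7.14 to 7.45). *Lrp1* was high in B6 male nPM mouse 16 (171 CPM, others 81.7 to 92.6). *Vldlr* was high in B6 male control 2 (62.2 CPM, others 26 to 32) and low in *APOE*4 female nPM mouse 39 (73.6 CPM, others 82.1 to 83). *Npc1* was low in *APOE*3 male control 55 (49 CPM, others 56.7 to 57.6).

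The nPM response differed between the sexes at an unadjusted p under 0.005 for *Hmgcs1* (-0.39, female minus male, log2) and *Idi1* (-0.55) over all genotypes. It did so for *Hmgcs1* within B6 mice (-0.92), and for *Npc2* within *APOE*-TR mice (-0.42, adjusted p = 0.261 by limma). Without *APOE*3 female controls 61 and F6, *Npc2* was no longer called (-0.29).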

How the results depend on the processing

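Of 152 alternatives for 18 counts of members called, 116 stayed within 1.5 times the reported count, where a 0 that stayed 0 counted as unchanged. 28 calls of single members kept their sign in all 1036 alternatives and lost the call in 273, and the cause was not tested. These alternatives mostly refit the same mice and are not independent of each other. The nPM count in 48 mice (1) was 0 with voom and ComBat, in males, in B6 mice and without the 2 *APOE*3 female controls of lowest length slope, 6 in females, and 7 in *APOE*-TR mice. The *APOE*-TR nPM count (7) was 2 with the length slope (31 of all 15967 genes) or without the 2 controls (42 of 16111). It was 3 in males (37 of 16573) and 3 in females (182 of 16098). It was 0 within *APOE*3 or *APOE*4 alone, and 1 (*Idi1*) without *APOE*3 females and with the slope (108 of 16252). edgeR's quasi-likelihood test on recovered reads called 8 members among 116 genes for nPM and 9 among 1326 for the allele in 32 mice. The B6 female count (4) was 1 with the slope and 2 with shared variance. With shared variance *APOE*3 females gave 14 for nPM (reported 0), but 5053 of all 16389 genes were called there. *APOE*4 against *APOE*3 gave 20 in female air (reported 3), where 6777 of all 16413 genes were called, and 0 in nPM females (reported 1). With the slope these allele counts were 1 and 0, *APOE*3 males gave 1 for nPM and *APOE*4 males 2, and without a filter nPM females gave 0. The allele count in 48 mice (1) was 4 with voom and ComBat, 0 with the slope or without the 2 controls, and 7 in *APOE*-TR mice. The *APOE*-TR allele count (7) was 2 with the slope, 4 without the 2 controls, 3 without *APOE*3 female controls and 3 in males. The sex difference (2) was 1 with voom and ComBat, 1 with the slope and 0 without the 2 controls. That within *APOE*-TR mice (1) was 0 with the slope and 0 without the 2 controls.

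With 1 mouse left out, counts ran from 1 to 3 (nPM, 48 mice), 0 to 3 (B6 females), 0 to 1 (B6 males, *APOE*3 females and *APOE*3 males), 0 to 0 (*APOE*4 females and males), 2 to 9 (32 *APOE*-TR mice), 1 to 3 (sex difference), 0 to 2 (sex difference in B6 and in *APOE*-TR mice) and 0 to 2 (difference by allele). For the allele they ran from 0 to 2 (48 mice), 1 to 6 (female air), 0 to 0 (male air), 0 to 1 (nPM females and nPM males) and 4 to 11 (32 mice). The *APOE*-TR nPM count was 2 without *APOE*3 female control 61, control F6, nPM mouse 59 or nPM mouse 67, and *Idi1* and *Sqle* were the 2. The allele count in 32 mice was 4 without *APOE*4 female control 38 or *APOE*3 female control F6. *Abcg1* in the 48-mouse allele contrast lost its call in 29 of 56 alternatives. In female air only *Lrp1* stayed called without *APOE*4 control 7, 26 or 38 or *APOE*3 control F6, and *Tm7sf2* in nPM females lost its call in 10 of 16. *Hmgcs1* in B6 mice lost its call without female control 40 or 41, female nPM mouse 51, male control 0 or 6, or male nPM mouse 12 or 16. *Npc2* in *APOE*-TR mice lost its call without *APOE*3 female control 61 or F6 or nPM mouse 59 or 67. No paired analysis was possible because the numbers in the labels are animal numbers that no pair of groups shares more than once. Depth limits *Nr1h3* in B6 mice.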
